A study of Mus musculus with 55 samples.

Results

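The Schlafen genes are a family of mouse genes that sit side by side on chromosome 11, and the 7 members described here, Slfn1, Slfn2, Slfn3, Slfn4, Slfn5, Slfn8 and Slfn9, were taken by symbol from 55421 genes in the first count table and 35975 in the second. All 7 symbols were found once in each table. In the first table Slfn8 was higher in every Tet2-/- library than in every WT library of 5 of the 6 populations, which was so for 3.2% to 6.77% of all genes in these populations. With edgeR it passed the threshold of the test in megakaryocyte-erythroid progenitors alone, where it rose 3.91-fold. DESeq2 also called it in long-term stem cells and common myeloid progenitors. The edgeR call was lost without any 1 of 4 libraries. It was also lost when reads of Slfn8 were summed with those of Slfn9 and Slfn10-ps, a sum made up mostly of Slfn10-ps in these cells. Per length and on average, Slfn2 was the main member in WT long-term stem cells and lymphoid progenitors, Slfn8 in short-term stem cells and Slfn9 in granulocyte-monocyte progenitors.

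Schlafen proteins share an N-terminal core that, in several members, cuts transfer RNA, and they fall into a short group (Slfn1 and Slfn2), an intermediate group (Slfn3 and Slfn4) and a long group (Slfn5, Slfn8 and Slfn9) that also carries a helicase-like C-terminal part. Many members are induced by type I interferon through the complex of STAT and IRF proteins that binds the interferon-stimulated response element. In blood cells the family is known for its part in the quiescence of T cells and of myeloid cells, and a mutation of Slfn2 leaves mice with T cells that fail to stay at rest.

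The libraries were bulk RNA-seq of cells sorted from mouse bone marrow, and the study asked which pathways the loss of Tet2 alters in stem and progenitor cells and whether they depend on Sting. Tet2 is an enzyme that oxidises methylated cytosine in DNA, and Sting (gene Tmem173) is the adaptor that links DNA in the cytosol to interferon production. The first set held 46 libraries, in which WT and Tet2-/- mice were each sorted into 6 populations: long-term stem cells (LT-HSC, Lin- cKit+ Sca1+ CD48- CD150+), short-term stem cells (ST-HSC, the CD150- counterpart), common myeloid (CMP), granulocyte-monocyte (GMP) and megakaryocyte-erythroid (MEP) progenitors, and common lymphoid progenitors (CLP, CD127+). Each group had 4 libraries, but the WT LT-HSC group and the WT ST-HSC group had 3 (numbers 2, 3 and 5). The second set was of LT-HSC alone, 9 libraries from WT mice, Sting-/- mice and Tet2;Sting DKO (double knockout) mice, 3 a genotype. The Tet2-/- and Tet2;Sting DKO mice carried floxed Tet2 alleles and Mx1-Cre, a recombinase under an interferon-inducible promoter, which was switched on from 4 weeks of age with 5 doses of poly(I:C), itself an inducer of interferon. Mice of the first set were kept for 16 weeks after induction. The sources used here do not say outright whether the WT and Sting-/- mice of these libraries also received poly(I:C), so an after-effect of the injections and the loss of Tet2 cannot be told apart. The labels give 200 sorted cells a library, the methods give another number, and the labels number the libraries of a genotype 2 to 5. A number is read here as 1 mouse, which the labels do not state outright.

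The Schlafen promoters are shown because an interferon-stimulated response element was searched for in all of them. The motif was GAAA, any 2 bases and GAAA again, read on both strands of the 300 bases from 250 before to 50 after each RefSeq start site (GRCm38.p6). It was present in 3.44% of 32851 promoters of that length and in 3 of the 7 members: Slfn5, Slfn8 and Slfn9, which are the long ones. Slfn14, another long Schlafen gene of the cluster, had no match in its window. Slfn8 and Slfn9 held it on the minus strand of the promoter with its first base at -48 and -45 from the start site (-136 from the other RefSeq start of Slfn8), and Slfn5 held it on the plus strand at -155. The windows of 30 bases are given 5′ to 3′ along the gene, with the motif in capitals:
Slfn8: atttgagcagTTTCGTTTTCcccaaaagca
Slfn9: atccgagcagTTTCGTTTTCccaaaaacaa
Slfn5: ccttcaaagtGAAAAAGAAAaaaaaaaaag
The Slfn8 and Slfn9 windows were the same at 25 of 30 bases. These letters were not found in the windows of Slfn1, Slfn2, Slfn3 and Slfn4. Of the 60 interferon-induced genes listed for comparison, 44 had a promoter entry and 22 of these held the motif. A match is a string of letters, not a measured binding site. The 250 bases before the start are shown whole for Slfn8 (chr11:83020811-83021060, minus strand) and Slfn9 (chr11:82991831-82992080, minus strand), since these neighbours share the motif and most of the bases next to it:
Slfn8: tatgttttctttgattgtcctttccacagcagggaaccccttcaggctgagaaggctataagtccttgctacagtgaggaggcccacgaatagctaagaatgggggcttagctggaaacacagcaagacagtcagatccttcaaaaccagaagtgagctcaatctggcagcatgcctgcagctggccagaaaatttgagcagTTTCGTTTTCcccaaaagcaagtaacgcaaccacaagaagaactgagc
Slfn9: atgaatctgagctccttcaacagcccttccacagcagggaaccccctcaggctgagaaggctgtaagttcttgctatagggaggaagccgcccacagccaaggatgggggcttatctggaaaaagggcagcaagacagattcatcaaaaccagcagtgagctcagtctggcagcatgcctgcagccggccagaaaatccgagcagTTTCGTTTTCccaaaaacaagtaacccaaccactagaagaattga

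In GENCODE vM21 (mm10) the family spans chr11:82951349-83286726, the last gene being Slfn14 (chr11:83275110-83286726, minus strand). In order of position come Slfn5 (chr11:82951349-82964840, plus strand), Slfn9 (chr11:82978390-82991830, minus), Slfn8 (chr11:83002158-83020810, minus), the pseudogene Slfn10-ps (chr11:83028130-83040042, minus), Slfn2 (chr11:83065112-83070678, plus), Slfn1 (chr11:83116849-83122670, plus), Slfn4 (chr11:83175186-83190216, plus) and Slfn3 (chr11:83191330-83215154, plus). Exonic sequence is partly shared. Of the 50-base stretches of each gene's exons, 14.6% of Slfn8's and 11.2% of Slfn9's occurred in another family gene, mostly in Slfn10-ps, against 8.15% for Slfn4, 7.39% for Slfn3, 4.27% for Slfn2, 0.606% for Slfn1 and 0 for Slfn5. The counts of Slfn8 and Slfn9 are therefore uncertain by the reads that the counting could split or drop. Slfn5 overlaps the opposite-strand gene Slfn5os over 8.84% of its exon length, and Slfn5os itself had 0 to 9 counts a library.

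Library totals ran from 50458473 to 102148079 counts in the first set and from 26776103 to 78681188 in the second, with 13754 to 20964 and 9381 to 11527 genes detected. The closest pair of libraries correlated at 0.971 and 0.855, so none was a copy. Mean Tet2 counts were lower in the Tet2-/- libraries in CMP, ST-HSC and MEP and higher in LT-HSC, GMP and CLP. In LT-HSC the mean was 24.0 ± 12.7 CPM (a gene's count per library total, with the totals rescaled by edgeR's TMM factors over the whole table; SD, n = 4) against 13.2 ± 1.69 in WT (n = 3), and in CMP it was 16.2 ± 8.22 against 20.9 ± 3.06 (n = 4 each). Since the counts pool all exons, they do not check a deletion of part of the gene. Among marker lists in the first set, summed CPM of 8 stem cell genes was 470 to 973 in LT-HSC and 256 to 549 in ST-HSC. This sum thus did not separate the stem cell sorts. Of its genes Slamf1 alone did, at 35.9 to 97.0 CPM in LT-HSC and 0 to 1.61 CPM in ST-HSC. The sum of 7 granulocyte-monocyte genes was 31873 to 46083 in GMP, and that of 7 erythroid genes was 17309 to 24339 in MEP. The CLP libraries were mixed: the granulocyte-monocyte genes ran from 2.65 to 12453 CPM in Tet2-/- CLP and from 4.77 to 3177 in WT CLP. In the second set Sting counts went against the labels, since the libraries labelled Sting-/- had 6333, 0 and 3835 of them. The libraries labelled WT had 1788, 1168 and 0, and the Tet2;Sting DKO libraries had 0, 14 and 1128. These counts also pool all exons. By Western blot, the study reports that STING was lost in bone marrow cells of Sting-/- and Tet2;Sting DKO mice. Xist was 89.7 to 240 CPM in the WT libraries of that set, 0 to 15.5 in the Sting-/- ones and 0.0137 to 0.247 in the Tet2;Sting DKO ones. The Y-linked Eif2s3y was 0 to 0.234 CPM in WT, 157 to 214 in Sting-/- and 276 to 314 in Tet2;Sting DKO, so in both comparisons with WT sex and genotype cannot be told apart. In bulk libraries, fewer cells of a type and less RNA per cell cannot be told apart.

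Levels among the 6 populations were compared first within WT. Of the 6 members with enough counts to be tested, 4 differed among populations (edgeR's quasi-likelihood F test, adjusted p = 6.12e-06 for Slfn8, 0.00054 for Slfn2, 0.00241 for Slfn4 and 0.019 for Slfn9), while 44.6% of all genes tested did. Slfn5 (adjusted p = 0.0783, edgeR) and Slfn3 (0.995) did not pass. Populations of one mouse are not independent samples, and the calls of these 4 members held with the mouse number as a block. Of 15 pairs of populations, 9 were called for Slfn8, 6 for Slfn2, 5 for Slfn4, 4 for Slfn9 and 1 for Slfn5. These 25 calls over 6 members and 15 pairs stand beside 14.4% of all gene-and-pair tests. The share of all genes called depended on the pair: it was 30.5% for MEP against CLP, 26.0% for LT-HSC against CLP, 15.3% for ST-HSC against MEP, 14.7% for GMP against MEP, 12.6% for LT-HSC against MEP, 5.53% for LT-HSC against CMP and 0.175% for LT-HSC against ST-HSC. The 25 calls came to 10 without WT replicate 2, 11 without WT replicate 3 and 11 without WT replicate 5.

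**Figure D1:**
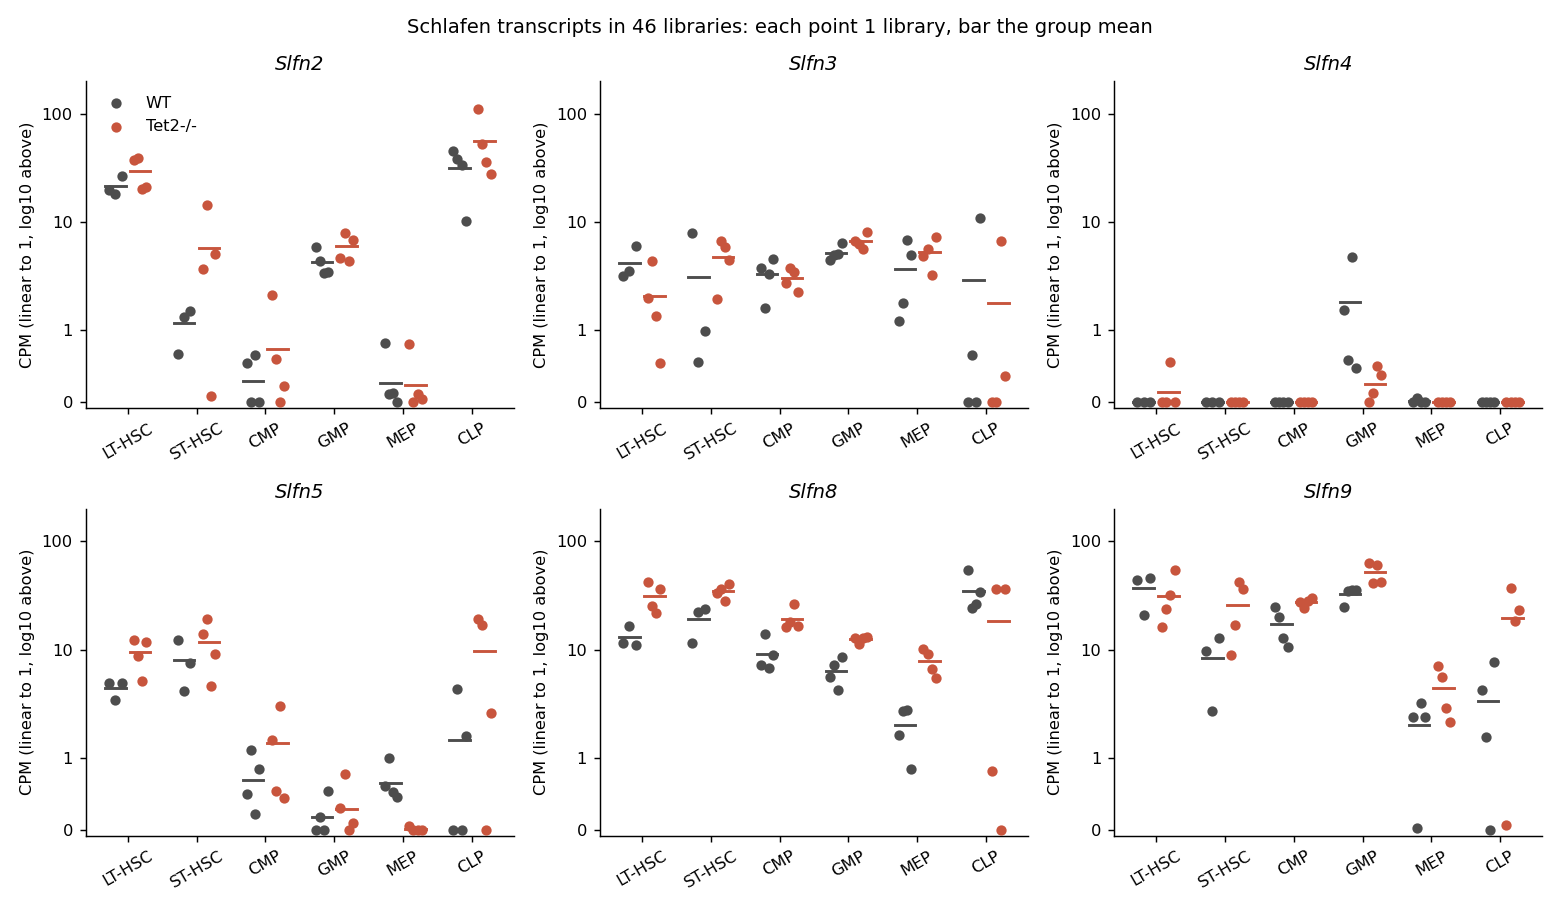
CPM of 6 Schlafen genes in the 46 libraries of the first set, by population; each point is a library, each bar a group mean, and the axis is linear near 0 and logarithmic above. The Tet2-/- points of Slfn8 lie above all WT points in every population but CLP, and Slfn4 has counts almost only in GMP.

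Slfn1, the gene for which a growth-arresting role in thymocytes was first described, was close to absent. It had 0 counts in 44 of 46 libraries of the first set and in all 9 of the second, and 4 counts each in 1 Tet2-/- CLP and 1 WT MEP library. A count of 0 allows up to 3 counts, which is 0.0273 to 0.0889 CPM in the libraries of the first set and 0.0410 to 0.105 CPM in those of the second. This limit covers counting error only. Slfn1 was tested in no comparison.

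Slfn2 keeps resting T cells and monocytes from dividing or dying. In WT it was 45.4, 37.7, 33.2 and 10.1 CPM in the 4 CLP libraries and 19.6, 18.2 and 26.4 CPM in the 3 LT-HSC libraries. It was 5.86, 4.39, 3.40 and 3.42 CPM in GMP and 0.673, 1.32 and 1.49 CPM in ST-HSC. It was at most 0.657 CPM in CMP and at most 0.826 CPM in MEP, with some libraries at 0. The order was CLP, LT-HSC, GMP, ST-HSC, CMP and MEP. No neighbours in that order passed the test. CLP exceeded MEP by 6.95 ± 1.48 on the log2 scale (SE; adjusted p = 0.00115, edgeR) while the difference from LT-HSC was -6.35 for MEP (adjusted p = 0.00552) and -6.13 for CMP (adjusted p = 0.0135).

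Slfn3, a member of the intermediate group known from T cells and from gut epithelium, showed no order among WT populations. Its levels were 3.16, 3.52 and 5.96 CPM in LT-HSC and 4.46, 4.92, 5.07 and 6.33 CPM in GMP, and 0, 0.651, 0 and 10.9 CPM in CLP. The CLP libraries thus held both the lowest and the highest of these values. Slfn4, known from macrophages and other myeloid cells, was found in GMP: 94, 44, 345 and 38 counts in WT (1.53, 0.589, 4.73 and 0.478 CPM). It was at 0 in 37 of 46 libraries, and outside GMP only 1 Tet2-/- LT-HSC library (36 counts) and 1 WT MEP library (4 counts) had any. The 5 pairs with GMP were called for Slfn4, of which 1 was called with the mouse number as a block.

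Among the long members, Slfn5, which acts in the nucleus in interferon responses, was 12.2, 4.19 and 7.47 CPM in WT ST-HSC and 4.92, 3.46 and 4.88 CPM in WT LT-HSC. It was at most 1.18 CPM in WT CMP, 0.541 in GMP and 0.997 in MEP. Slfn8 in WT was 54.9, 24.1, 26.4 and 34.1 CPM in CLP, then 11.4, 22.4 and 23.9 in ST-HSC and 11.4, 16.4 and 11.04 in LT-HSC. It was 7.18, 13.9, 6.83 and 8.91 CPM in CMP and 5.59, 7.15, 4.22 and 8.47 CPM in GMP. It was lowest in MEP, at 1.63, 2.70, 2.79 and 0.851 CPM. Of the neighbours in that order only the last passed the test: GMP exceeded MEP by 1.74 ± 0.42 on the log2 scale (SE; adjusted p = 0.00538, edgeR). CLP exceeded MEP by 4.19 ± 0.46 (adjusted p = 7.85e-07) and the difference of MEP from ST-HSC was -3.31 (adjusted p = 3.47e-05).

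Slfn9 had another order in WT: LT-HSC (43.7, 20.8 and 46.1 CPM), GMP (24.9, 34.7, 35.4 and 35.6), CMP (24.8, 20.1, 12.9 and 10.6), ST-HSC (9.74, 2.69 and 12.7), CLP (4.25, 1.54, 0 and 7.64) and MEP (2.3996, 0.0273, 3.23 and 2.36). No neighbours in that order passed the test, while the difference from LT-HSC was -4.23 on the log2 scale for MEP (adjusted p = 0.0195, edgeR) and -3.43 for CLP (adjusted p = 0.03). The difference of MEP from GMP was -4.09 (adjusted p = 0.0152). The neighbours Slfn8 and Slfn9 were thus in opposite places in CLP, where Slfn8 had its highest WT levels and Slfn9 some of its lowest.

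In Tet2-/- mice, 2 of the 5 members tested differed among populations, Slfn2 (adjusted p = 0.000767, edgeR) and Slfn5 (0.00198), beside 40.2% of all genes. Slfn5 had 7 pairs called and Slfn2 had 6, Slfn9 had 3 (1 with the mouse number as a block) and Slfn8 had none, 16 calls in all beside 12.2% of all gene-and-pair tests (6 without Tet2-/- replicate 3 and 6 without Tet2-/- replicate 5). Slfn8 was 0.824, 36.5, 0 and 35.9 CPM in the 4 Tet2-/- CLP libraries, so 2 of them were at or near 0. That the genotypes gave different numbers of calls is not a test of a difference. The test of whether the Tet2-/- effect differed among the 6 populations called none of the 6 members and 2.65% of all genes. The lowest adjusted p was that of Slfn5 (0.325, edgeR), and that of Slfn8 was 0.661.

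Per kilobase of exon, which allows levels of different genes to be compared, the 7 members summed to 24.1 ± 4.42 CPM per kb in WT LT-HSC (SD, n = 3) and 29.2 ± 9.28 in WT CLP (n = 4). The sum was 11.6 ± 0.597 in WT GMP, 8.97 ± 1.40 in WT ST-HSC, 6.37 ± 1.21 in WT CMP and 2.18 ± 0.852 in WT MEP. Slfn2 made up 53.2 ± 2.81% of it (mean and SD) in WT LT-HSC and 62.4 ± 21.0% in WT CLP (range 31.7 to 76.4%). In WT CLP replicate 5 Slfn8 led, at 8.34 CPM per kb against 6.06 for Slfn2. Slfn8 made up 53.3 ± 21.0% in WT ST-HSC (range 30.8 to 72.5%) and Slfn9 47.0 ± 5.49% in WT GMP. Slfn3 made up 45.8 ± 21.3% in WT MEP (range 20.4 to 67.3%). In Tet2-/- mice the sum was 32.8 ± 6.15 in LT-HSC, 19.6 ± 4.94 in ST-HSC, 10.8 ± 1.25 in CMP, 17.4 ± 0.86 in GMP, 4.34 ± 1.09 in MEP and 43.7 ± 19.9 CPM per kb in CLP (n = 4 each). The ranges of the genotypes were apart in ST-HSC (7.53 to 10.3 against 14.6 to 25.3), CMP (5.22 to 7.42 against 9.92 to 12.6) and GMP (10.8 to 12.2 against 16.5 to 18.4). They overlapped in LT-HSC, MEP and CLP. Single genes higher in Tet2-/- without overlap were 3.34% of those tested in ST-HSC, 6.77% in CMP and 5.89% in GMP. The sums were not tested. The share of Slfn8 in MEP was 24.7 ± 15.5% in WT (SD, range 9.62 to 46.3%). In Tet2-/- mice it was 44.3 ± 7.15% (range 34.5 to 51.6%), so the ranges overlapped.

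**Figure D2:**
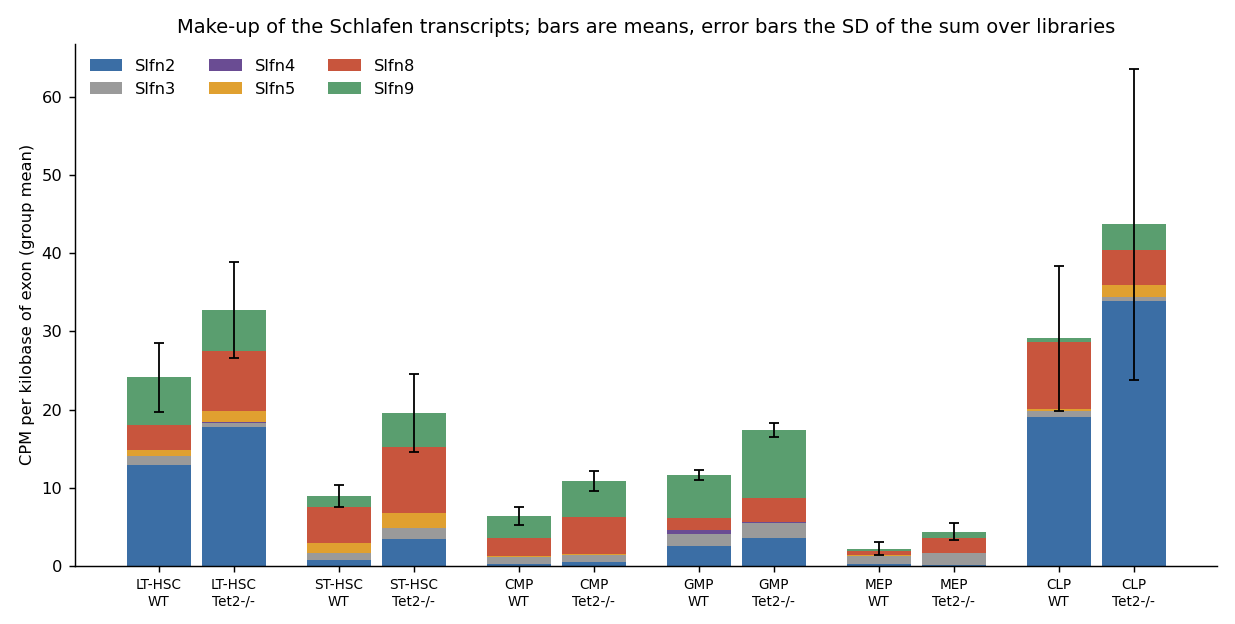
Mean Schlafen level per kilobase of exon (CPM per kb), stacked by member, in each population and genotype of the first set; the error bar is the SD of the sum over 3 or 4 libraries, and Slfn1 is left out. Slfn2 takes the largest part of the LT-HSC and CLP columns and hardly any of the CMP and MEP ones.

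Tet2-/- and WT mice were compared within each population. To be called, a gene had to differ by 2-fold or more with an adjusted p under 0.05. With edgeR, 1 member met both in 1 population: Slfn8 in MEP. Across all genes, 4.36% were called in MEP, 4.57% in CMP, 4.38% in GMP, 0.0245% in LT-HSC, 0.0185% in ST-HSC and 0.00766% in CLP. Most calls in the 3 myeloid progenitors were of lower genes: only 0.147% of genes were called higher in MEP, 0.654% in CMP and 0.308% in GMP.

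Slfn8 in MEP was 10.2, 9.15, 6.56 and 5.42 CPM in the Tet2-/- libraries against 1.63, 2.70, 2.79 and 0.851 CPM in WT. The lowest Tet2-/- library lay well above the highest WT library. The log2 difference was 1.97 ± 0.42 (SE; 95% interval 1.02 to 2.91; adjusted p = 0.0249, edgeR; exact permutation p = 0.0286, two-sided and the smallest that 4 against 4 libraries can give). The call was lost, at an adjusted p between 0.0508 and 0.0777 (edgeR), without Tet2-/- replicate 2, 3 or 4 or without WT replicate 2. It was also lost when the reads of Slfn8, Slfn9 and Slfn10-ps were summed, where the log2 difference was 0.88 (adjusted p = 0.104), and when all 46 libraries shared one fit (adjusted p = 0.399 at the same 1.97). Summed CPM of 6 erythrocyte genes differed in the opposite direction, 154 to 434 in WT MEP and 80.3 to 107 in Tet2-/- MEP. Alas2 and Slc4a1 were under 1 CPM in both, and the part of this sum in the Slfn8 result was not tested.

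In the other myeloid populations and in stem cells Slfn8 kept the same direction without a call by edgeR. In GMP it was 12.8, 11.3, 12.9 and 13.2 CPM in Tet2-/- libraries against 5.59, 7.15, 4.22 and 8.47 CPM in WT, a log2 difference of 0.95 ± 0.23 (SE; adjusted p = 0.0309, edgeR) that is 1.93-fold and so fell short of the fold minimum alone; without that minimum 6.56% of all genes were called in GMP. In CMP it was 16.1, 17.8, 26.1 and 16.4 CPM against 7.18, 13.9, 6.83 and 8.91 CPM, a difference of 1.04 ± 0.29 (adjusted p = 0.0633, edgeR). The CMP genotypes also differed in summed CPM of the 7 erythroid genes, 981 to 2485 in WT and 3866 to 7534 in Tet2-/-, with none of the 7 under 1 CPM throughout, and its part in the CMP values was not tested.

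In LT-HSC Slfn8 was 41.7, 25.5, 21.8 and 36.4 CPM in Tet2-/- libraries against 11.4, 16.4 and 11.04 CPM in WT, a log2 difference of 1.29 ± 0.36 (SE; 95% interval 0.480 to 2.099; unadjusted p = 0.00593, adjusted p = 0.614, edgeR). In ST-HSC it was 33.2, 36.7, 28.1 and 40.7 CPM against 11.4, 22.4 and 23.9 CPM, a difference of 0.89 ± 0.32 (adjusted p = 0.617, edgeR). In all 5 populations the groups did not overlap, with an exact permutation p of 0.0286 in each. Genes whose Tet2-/- libraries all lay above WT were 3.2% of those tested in LT-HSC, 3.34% in ST-HSC, 6.77% in CMP, 5.89% in GMP and 4.65% in MEP. The populations came from the same numbered mice, so the 5 are not separate repeats. CLP went the other way, with 0.824, 36.5, 0 and 35.9 CPM against 54.9, 24.1, 26.4 and 34.1 CPM, and with overlapping groups (-0.952 ± 1.597; adjusted p = 1, edgeR). With DESeq2 in place of edgeR, Slfn8 was called in LT-HSC (adjusted p = 0.0184), CMP (0.00404) and MEP (7.75e-05), beside 1.47%, 7.07% and 6.13% of all genes.

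**Figure D3:**
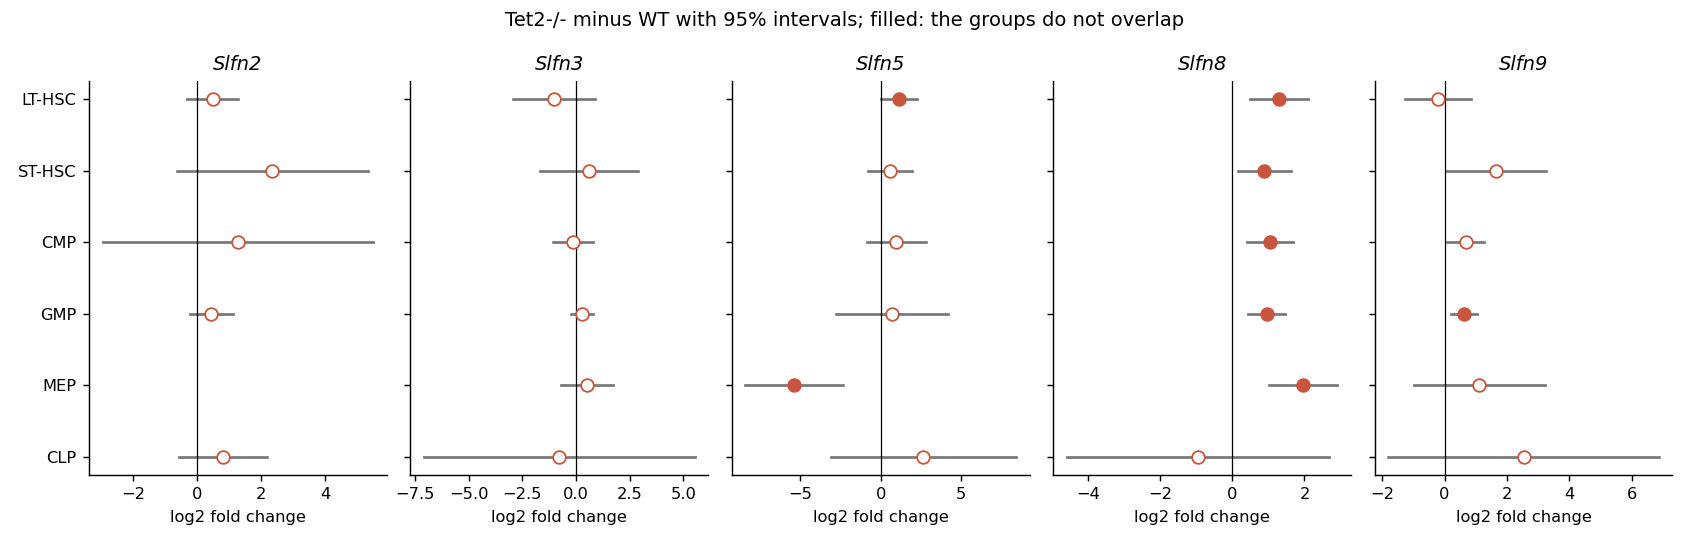
Log2 difference between Tet2-/- and WT for 5 Schlafen genes in each population where they were tested by edgeR, with 95% intervals; filled points mark populations whose libraries do not overlap, and the horizontal range differs between panels. Slfn8 is above 0 with its whole interval in every population but CLP, and Slfn5 in MEP is the one filled point below 0.

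Slfn9 was higher in every Tet2-/- GMP library, at 62.6, 41.6, 61.0 and 42.2 CPM, than in WT, at 24.9, 34.7, 35.4 and 35.6 CPM. The log2 difference of 0.62 ± 0.19 (SE, with a 95% interval of 0.20 to 1.05) did not pass the correction by edgeR (adjusted p = 0.097). The exact permutation p was 0.0286. With DESeq2 the adjusted p was 0.0314, and the difference of 0.62 fell short of the 2-fold minimum, so it was not called. In CMP the levels were 27.8, 24.3, 28.2 and 30.1 CPM against 24.8, 20.1, 12.9 and 10.6 CPM and overlapped, with a difference of 0.68 ± 0.27 (adjusted p = 0.193, edgeR). In ST-HSC they were 8.97, 16.7, 42.0 and 36.6 CPM against 9.74, 2.69 and 12.7 CPM (1.66 ± 0.69; adjusted p = 0.781, edgeR). LT-HSC showed no such direction: 16.1, 23.7, 31.9 and 54.6 CPM in Tet2-/- and 43.7, 20.8 and 46.1 CPM in WT (-0.21 ± 0.47; adjusted p = 0.998, edgeR).

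Slfn5 was lower in Tet2-/- MEP and higher in Tet2-/- LT-HSC, and the test of whether its effect differed among populations did not pass. In MEP it had 31, 73, 40 and 31 counts in WT and 5, 0, 0 and 0 counts in Tet2-/- libraries, or 0.647 ± 0.241 against 0.0129 ± 0.0258 CPM (SD, n = 4 each). The fitted log2 difference of -5.38 ± 1.35 (SE; adjusted p = 0.0528, edgeR; exact permutation p = 0.0286) missed the threshold, and without the library at 5 counts the adjusted p was 0.0175 (edgeR). DESeq2 called it (adjusted p = 0.000164). Groups that did not overlap and were lower in Tet2-/- made up 8.44% of the genes tested in MEP. In LT-HSC Slfn5 was 12.1, 8.79, 5.10 and 11.8 CPM in Tet2-/- against 4.92, 3.46 and 4.88 CPM in WT, also without overlap but upward (1.11 ± 0.49; adjusted p = 0.971, edgeR; exact permutation p = 0.0571). Groups higher in Tet2-/- without overlap were 3.2% of all genes there.

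Slfn4 in GMP had 0, 8, 34 and 28 counts in Tet2-/- libraries against 94, 44, 345 and 38 in WT. Every Tet2-/- value lay below every WT value in counts, the nearest being 34 and 38. On the CPM scale, which corrects for depth, the groups overlapped at 0.499 and 0.478 CPM, and the log2 difference was -2.96 ± 1.16 (SE; 95% interval -5.53 to -0.39; adjusted p = 0.204, edgeR; exact permutation p = 0.0571). The WT mean of 1.83 CPM leaned on WT replicate 4, at 4.73 CPM, beside a WT median of 1.06 CPM. Summed CPM of 8 neutrophil genes was 30.04 to 72.8 in WT GMP and 12.3 to 37.1 in Tet2-/- GMP, with Ltf, Camp, Ngp and Retnlg under 1 CPM in both, and its part in the result was not tested. GMP was the only population in which Slfn4 could be tested.

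Slfn2 and Slfn3 passed no test between genotypes. Slfn2 in LT-HSC was 37.7, 39.0, 20.3 and 20.9 CPM in Tet2-/- against 19.6, 18.2 and 26.4 CPM in WT (0.48 ± 0.35 on the log2 scale; adjusted p = 0.998, edgeR). In CLP it was 110, 52.4, 35.5 and 27.6 CPM against 45.4, 37.7, 33.2 and 10.1 CPM (0.81 ± 0.60; adjusted p = 1). In ST-HSC it was 3.64, 14.4, 0.0931 and 5.01 CPM against 0.673, 1.32 and 1.49 CPM, where 3 of the 4 Tet2-/- libraries lay above WT and 1 below (2.35 ± 1.30; adjusted p = 0.949). Slfn3 differences ran from -1.03 ± 0.84 in LT-HSC to 0.598 ± 0.996 in ST-HSC, with GMP at 0.31 ± 0.23, and all of its groups overlapped.

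With the mouse as the unit, each mouse's log2 CPM was averaged over CMP, GMP, MEP and CLP, 4 mice against 4. No member was called, beside 2.51% of all genes (limma). By limma's p Slfn9 came closest, with a difference of 1.46 ± 0.57 (SE; adjusted p = 0.279; exact permutation p = 0.0857). Slfn4 had the lowest exact permutation p (0.0571), at a difference of -0.80 ± 0.36 (adjusted p = 0.372, limma). Slfn8 was at 0.08 ± 0.52 (adjusted p = 0.971; exact permutation p = 1). The Slfn8 mean took in the 2 Tet2-/- CLP libraries at or near 0. With CMP, GMP and MEP alone, a choice made after seeing these values, Slfn8 differed by 1.39 ± 0.19 (95% interval 0.97 to 1.82; adjusted p = 0.00067, limma; exact permutation p = 0.0286), beside 10.3% of all genes. Slfn9 then differed by 1.14 ± 0.36 (adjusted p = 0.0718, limma).

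The Schlafen values are set beside 60 interferon-induced genes, the wider programme to which many of its members belong. In GMP 54 of the 58 tested, or 93.1%, had a log2 difference above 0, with a median of 0.50, against 52.9% and 0.03 over all genes. In LT-HSC 84.2% of 57 were above 0 with a median of 0.42 (all genes 54.3% and 0.06). In MEP 82.5% of 57 were above 0 with a median of 0.49, in CMP 75.4% of 57 with 0.32, in CLP 72.9% of 48 with 0.35 and in ST-HSC 68.3% of 60 with 0.19. Over all genes these were 54.2% and 0.05 in MEP and 52.0% and 0.03 in CMP. They were 54.1% and 0.07 in CLP and 53.1% and 0.04 in ST-HSC. Few of the interferon genes passed the test alone: 2 in MEP, 1 in CMP, 1 in GMP and none in LT-HSC, ST-HSC and CLP were called, all higher. The Slfn8 differences lay above the interferon medians in the same 5 populations and below the interferon median in CLP.

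The interferon genes called were Trim30a, a regulator of innate signalling, and Igtp, a GTPase that acts against intracellular parasites, in MEP, and Ifi44 in CMP and GMP. Trim30a rose in MEP from 20.8 ± 3.19 to 44.8 ± 6.63 CPM (SD, n = 4; 1.10 ± 0.18 on the log2 scale, SE; adjusted p = 0.00584, edgeR). Igtp rose in MEP from 13.2 ± 2.18 to 42.0 ± 28.7 CPM (adjusted p = 0.0402, edgeR). Ifi44 rose by 1.30 ± 0.31 in CMP (adjusted p = 0.0378, edgeR) and by 1.84 ± 0.45 in GMP (adjusted p = 0.033). In LT-HSC the lowest p was that of Ifit3, at 0 CPM in WT and 4.74 ± 2.04 CPM in Tet2-/- (adjusted p = 0.194, edgeR), followed by Ddx60 (1.08 on the log2 scale) and Irgm1 (1.10). In ST-HSC they were Ifit1 (0.95), Xaf1 (0.78) and Ifi44 (1.20), and in CLP Trim30a (0.82), Bst2 (-0.96) and Eif2ak2 (4.81), none of them called.

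**Figure D4:**
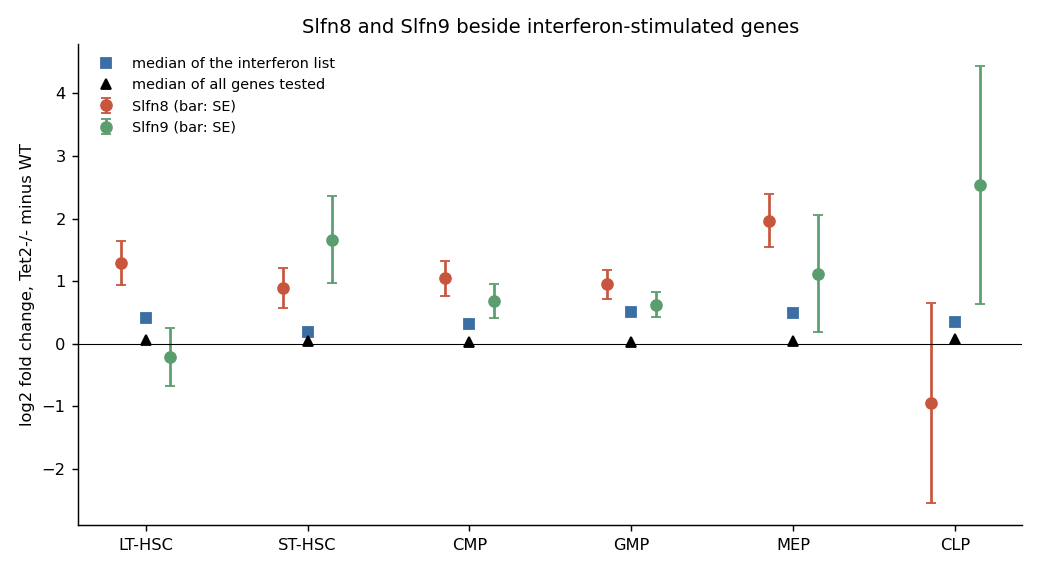
Log2 difference between Tet2-/- and WT of Slfn8 and Slfn9 in each population (points, with SE) beside the median of the interferon genes tested and the median of all genes. The interferon median is above that of all genes in each population, and Slfn8 lies above it in all but CLP.

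In the second set, no member tested by edgeR passed in any of the 3 comparisons (Slfn2 and Slfn9 were tested in all 3, Slfn3 and Slfn8 in Sting-/- against WT alone, and Slfn1, Slfn4 and Slfn5 in none), and the libraries of one group often ran from near 0 to over 10 CPM. Groups are named there as labelled. Across all genes edgeR called 0 of 9968 in Sting-/- against WT (469, or 4.71%, at an unadjusted p under 0.05; DESeq2 called 407), 0.657% in Tet2;Sting DKO against WT and 0.159% in Tet2;Sting DKO against Sting-/-. With 3 against 3 libraries the exact permutation test cannot go below 0.1. Slfn2 was 14.0, 7.77 and 1.20 CPM in WT, 60.2, 16.4 and 34.7 CPM in the libraries labelled Sting-/- and 62.9, 118 and 18.0 CPM in Tet2;Sting DKO. Both mutant groups lay above every WT library. The log2 difference from WT was 2.26 ± 1.56 for Sting-/- (adjusted p = 1, edgeR) and 3.04 ± 1.40 for Tet2;Sting DKO (adjusted p = 0.422), with an exact permutation p of 0.1 in each, and the comparisons share their WT libraries. Groups above WT without overlap made up 6.45% and 11.2% of all genes.

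Slfn8 in that set was 0, 83.7 and 21.5 CPM in WT, 0, 2.25 and 0.0827 CPM in Sting-/- and 0.0617, 0 and 0 CPM in Tet2;Sting DKO. A WT library at 0 kept the groups from separating. Slfn10-ps, its neighbour with shared sequence, was 30.6, 27.9 and 38.0 CPM in WT, 0, 2.21 and 0.0331 CPM in Sting-/- and 0, 0 and 0.534 CPM in Tet2;Sting DKO. Slfn3 was 2.71, 0.0292 and 24.5 CPM in WT and 0 in all 3 Tet2;Sting DKO libraries. Slfn3 and Slfn8 had counts in too few libraries to enter the edgeR test of Tet2;Sting DKO against WT, and DESeq2 called both (adjusted p = 0.00267 and 0.016), beside 13.3% of all genes. Slfn9 was 1.34, 0.0292 and 56.7 CPM in WT, 15.8, 12.2 and 57.0 CPM in Sting-/- and 84.0, 27.9 and 51.9 CPM in Tet2;Sting DKO, with overlap throughout (1.44 ± 1.98 for Tet2;Sting DKO against WT; adjusted p = 0.944, edgeR). Slfn5 was 43.7 CPM in 1 Tet2;Sting DKO library, 1.95 in 1 WT library and at most 0.0165 CPM in the other 7, and Slfn4 was found in 1 WT library alone (219 counts).

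**Figure D5:**
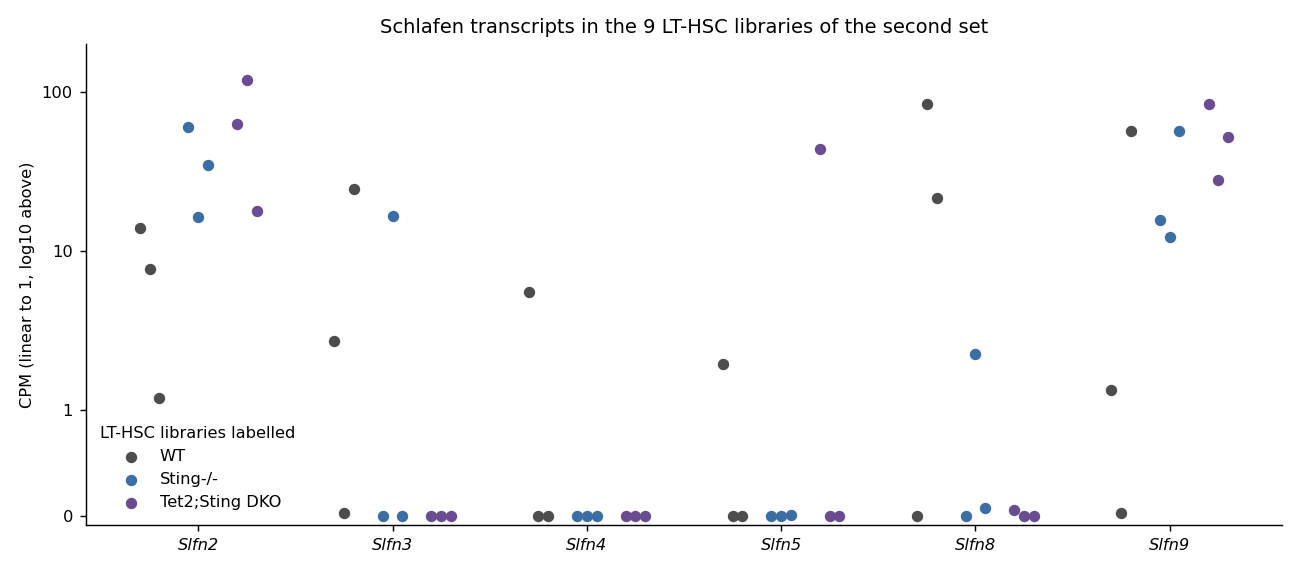
CPM of 6 Schlafen genes in the 9 LT-HSC libraries of the second set by genotype, 3 a group; each point is a library. Slfn2 is higher in all 6 mutant libraries than in WT, and Slfn3, Slfn5, Slfn8 and Slfn9 have libraries at or near 0 beside libraries at over 10 CPM.

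Of the interferon genes in the second set, 43.8% of 48 had a log2 difference above 0 in Sting-/- against WT (median -0.14), 59.2% of 49 in Tet2;Sting DKO against WT (median 0.19) and 68.8% of 48 in Tet2;Sting DKO against Sting-/- (median 0.60), and none was called. Over all genes the shares and medians were 51.1% and 0.03, 48.0% and -0.08, and 51.9% and 0.06, in the same order. Among the interferon genes, the lowest p in Sting-/- against WT were those of Igtp (1.37), Ifi44 (1.45) and Sp100 (-1.23). In Tet2;Sting DKO against WT they were those of Igtp (2.01), Ly6e (1.04) and Irgm2, listed at 0 in WT and at 39.7 ± 29.3 CPM in Tet2;Sting DKO. In Tet2;Sting DKO against Sting-/- they were those of Ly6e (0.74), Dtx3l (from 26.5 to 0.135 CPM) and Ifi203 (1.28).

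Over the 46 libraries of the first set, Pearson's r of log2 CPM between members ran from -0.42 to 0.48, highest for Slfn3 and Slfn9, and was 0.25 for Slfn8 and Slfn9. With the mean of each group taken off, r was 0.47 for Slfn5 and Slfn8, 0.44 for Slfn3 and Slfn9 and -0.43 for Slfn3 and Slfn8. Over these libraries, which share populations and mice, the genes most like each member were Dock2 (r = 0.80), Dennd1c (0.78) and Rora (0.78) for Slfn2, Pcsk4 (0.89), Scyl2 (0.84) and Akap1 (0.83) for Slfn3, and Cebpe, Sgms2 and Lta4h (each 0.70) for Slfn4. They included Pnisr (0.76) and Med13 (0.75) for Slfn5, and were Kat6b (0.82), Serpini1 (0.79) and the interferon gene Parp9 (0.76) for Slfn8, and Lyz2 (0.83), Ugt1a7c (0.82) and Slc39a6 (0.82) for Slfn9. Once the mean of each group was taken off, r stayed at 0.79 for Slfn8 with Kat6b and 0.77 with Parp9, but fell to 0.40 for Slfn2 with Dock2 and 0.21 for Slfn4 with Cebpe. The interferon genes as a list had a median r with Slfn8 of 0.233 over the libraries, against -0.000561 for all genes, and of -0.0422 against 0.0381 with the group means taken off. For Slfn5 these medians were 0.392 against -0.0379, and 0.0830 against -0.0350 with the group means taken off. Over the libraries they were 0.205 against 0.117 for Slfn9 and 0.0986 against -0.138 for Slfn2. They went the other way for Slfn4 (-0.187 against 0.0777) and Slfn3 (0.0919 against 0.159). With the group means taken off they were 0.00626 against 0.0965 for Slfn9 and -0.0502 against -0.00811 for Slfn4. For Slfn3 and Slfn2 they were then 0.129 against 0.0674 and 0.000405 against -0.0204. Slfn10-ps was detected in all 46 libraries, at 0.457 to 135 CPM. Slfn14, at the far end of the cluster, was above 0 in 5 libraries (0.729 to 2.18 CPM), and Slfnl1, on chromosome 4, had 12 counts in 1 WT MEP library.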

How the data were processed

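RNA from sorted mouse bone marrow cells was made into full-length cDNA libraries by a SMART-Seq2 type protocol and sequenced in pairs. The authors deposited whole-number counts of reads per gene, not normalized, in 2 tables of 46 and 9 libraries. The submitters' processing notes name Trim Galore 0.6.7, HISAT2 7.5.0 and DESeq2 and the builds mm10 and mm9, the methods give other versions and mm10, and the counting program, its strand setting and its treatment of reads with several matches are not given in the sources used here. Reads shared by family members can therefore be split or lost. From the second of them, 3 broken lines were dropped.

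Levels (CPM) are counts per library total, with the totals rescaled by TMM over all libraries of a table. The quasi-likelihood test of edgeR 4.0.16 (R 4.3.3) was run on the counts of the groups compared, after filterByExpr and TMM scaling and over all genes of a table. Calls needed a 2-fold difference and an adjusted p (Benjamini-Hochberg) under 0.05. Averages per mouse of log2 CPM (prior count of 2) were tested with limma 3.58.1, and single members also with a two-sided exact permutation of libraries. DESeq2 1.42.0, RLE scaling, no low-count filter, one fit for all libraries and the replicate number as a block were alternatives. So was leaving out each library, or each replicate number where populations were joined. The scripts were tested on simulated data. Replicates are libraries with separate numbers, and p-values measure the spread between these libraries, which may in part be technical. The printed 95% intervals come from that spread, and the limits for a count of 0 cover counting error only.

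All 7 members were named. Likeness was ranked by Pearson's r among genes of at least 5 CPM on average, predicted genes left out, 3 a member, of which 1 is not reported here. Interferon genes were named if called in any comparison, otherwise the 3 with the lowest p. The members and lists were chosen with earlier results of these data known. The tables were not joined. Promoters came from RefSeq (GRCm38.p6), where all 7 members matched. Plots were drawn with matplotlib 3.10.9.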

Additional observations from a re-analysis of the deposited data

Results flagged for a closer look

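Among 56 sets of 4 libraries of one group and member, 10 had a library set far apart from the other 3 by Dixon's test at the 95% level. Chance flags about 1 in 20 of normally distributed sets, which sets near 0 counts are not. A library with any count beside 3 at 0 is always flagged, so the 10 do not measure an excess of outliers. Most of the 10 are single libraries with counts beside libraries at or near 0. Slfn1 was 0.0598 CPM in Tet2-/- CLP replicate 5 and 0.0587 CPM in WT MEP replicate 5, 4 counts each. Slfn2 was 0.804 CPM in Tet2-/- MEP replicate 2 and 0.826 CPM in WT MEP replicate 2. Slfn3 was 6.73 CPM in Tet2-/- CLP replicate 4 and 10.9 CPM in WT CLP replicate 5. Slfn4 was 0.564 CPM in Tet2-/- LT-HSC replicate 4 and 0.0546 CPM in WT MEP replicate 3. Slfn5 was 0.0516 CPM in Tet2-/- MEP replicate 2, from 5 counts. Slfn9 in WT GMP replicate 2 was the one low library, at 24.9 CPM with the nearest at 34.7.

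Slfn5 was lower in every Tet2-/- MEP library than in WT (-5.38 on the log2 scale) and higher in every Tet2-/- LT-HSC library than in WT (1.11). The difference between these 2 populations was not tested by itself. The test of a genotype effect that differs among all 6 populations gave an adjusted p of 0.325 (edgeR; 0.0407 before adjustment).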

How the results depend on the processing

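With DESeq2, 1 member was called in LT-HSC, 1 in CMP, 2 in MEP and 2 in Tet2;Sting DKO against WT. Without a minimum fold, 1 was called in GMP. One fit for all libraries gave 0 in MEP. Leaving out 1 library gave 0 to 1 members in CMP (Slfn8 at an adjusted p of 0.0228 without WT replicate 3), 0 to 1 in GMP (Slfn8 at 0.0211 without WT replicate 5) and 0 to 1 in MEP. Without 1 replicate number, calls between pairs of populations ranged from 10 to 19 in WT (25 with all). In Tet2-/- mice they ranged from 6 to 17 (16 with all). The cause of these shifts was not tested.

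Signs that turned were all of differences not called. Leaving out 1 library gave Slfn2 in CMP -0.12 to 2.01, Slfn3 in CMP -0.36 to 0.056, Slfn5 in GMP -0.46 to 2.27, Slfn3 in CLP -4.68 to 2.93, and in Sting-/- against WT Slfn9 -0.47 to 5.29 and Slfn3 -11.61 to 1.94. For the mouse means, leaving out 1 mouse gave Slfn8 -0.25 to 0.59, Slfn5 -0.44 to 0.76 and Slfn3 -0.21 to 0.74. A prior count of 0.5 gave Slfn8 -0.044 and Slfn5 -0.036, and CMP, GMP and MEP only, chosen after seeing the data, gave 1 member called and Slfn5 at -0.86.

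The replicate block changed no member count between genotypes; members differing among populations stayed at 4 in WT and 2 in Tet2-/- mice, pair calls were 20 and 13, and mouse means called 0. Across all genes the block moved calls from 4 to 2 in LT-HSC, 3 to 2 in ST-HSC, 734 to 527 in CMP, 725 to 658 in GMP, 651 to 527 in MEP, 1 to 0 in CLP, 64 to 26 and 15 to 0 in Tet2;Sting DKO against WT and Sting-/-, and 501 to 251 for the mouse means. WT and Tet2-/- libraries of one number share only that number (r of deviations -0.0216 to 0.0345). Populations of one number, read as one mouse, had a mean r of deviations of 0.0141 to 0.0352. These ranges overlap near 0, so they do not show whether a number is one mouse. DESeq2 called 235, 331, 1235, 1072, 1049 and 464 genes in the 6 populations and 407, 1355 and 800 in the second set, and one fit called 20, 21, 285, 219, 423 and 1477 in the 6 populations. Several members under 1 CPM had 0 counts in one library and some in the next of the same group, which limits how small a difference can be seen there.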
